A study of Mus musculus with 6 samples.

Results

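The genes of MHC class II antigen presentation were examined in bone marrow-derived macrophages (BMDMs, macrophages grown in culture from marrow precursors) that had been kept together with neutrophils. The set was given by name and held 10 genes, *H2-Aa*, *H2-Ab1*, *H2-Eb1*, *Cd74*, *Ciita*, *H2-DMa*, *H2-DMb1*, *H2-DMb2*, *H2-Oa* and *H2-Ob*, and each matched 1 of the 55335 gene rows of the table. The rule is the list of names and has no threshold on a measured value, but the list was drawn up with earlier results of these data known. RNA-seq had been done on 6 libraries. In 3 of them BMDMs had been in direct contact for 24 h with neutrophils of *Cd177* WT mice, and in the other 3 with those of *Cd177* KO mice, which lack the neutrophil surface protein CD177. Both kinds of neutrophils came from the spinal cord lesion of mice at 3 days post injury (dpi) and were isolated by magnetic sorting (MACS). The BMDMs of all 6 libraries carried intact *Cd177*, had been cultured for 7 days with M-CSF at 25 ng/ml and were sorted after co-culture as Ly6G-negative cells. The study used male mice. Its methods name adult C57BL/6 mice and give no strain for the *Cd177* KO mice. No library of BMDMs alone or of neutrophils alone was analysed here. The labels do not say whether replicates came from separate animals or cultures. The p-values therefore set each difference against the spread between these libraries, which may not be the spread between animals.

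The values are FPKM, that is fragments relative to transcript length and library total, a level per transcript length. Low values implied a depth of 1.77e+07 to 2.03e+07 fragments per library, a rough figure because between 39.9% and 43.5% of low values lay within 0.1 of a whole number of fragments. *Cd177* had 0.544, 0.309 and 0.521 FPKM under the WT label and 1.79, 1.84 and 2.28 FPKM under the KO label. As the deletion lay in the neutrophils and not in the BMDMs, this gene does not check the BMDMs. Its level ran against the labels, and groups are therefore named by their labels. Neutrophil markers in the sorted cells summed to between 199 and 258 FPKM under the WT label and between 540 and 553 FPKM under the KO label. Which cells the *Cd177* reads came from was not tested. Correlations between libraries across genes were 0.967 to 0.985 within groups and 0.905 to 0.917 between them. The 13367 genes whose mean reached 0.5 FPKM entered a limma fit on log2(FPKM + 0.5) with Benjamini-Hochberg adjustment, a scale on which the change of low genes is understated. Of these, 1408 were lower and 3619 higher under the KO label at an adjusted p-value under 0.05, at a median log2 fold change of 0.19 over all genes, with 72.0% of the calls higher. Median-of-ratios scaling brought that median to -0.01 and gave 2259 lower and 2057 higher genes, with 47.7% of the calls higher.

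MHC class II molecules are pairs of an alpha and a beta chain that carry peptides from the endosome to the cell surface, where CD4+ T cells read them. The pair is built around the invariant chain, encoded by *Cd74*, which is cut down by cathepsins until the editor H2-DM exchanges its last fragment for a peptide, and H2-DO holds H2-DM back. The genes of the alpha and beta chains, the invariant chain and H2-DM answer to the transactivator CIITA. It docks on the RFX, CREB and NF-Y proteins bound to their promoters. In macrophages, interferon gamma raises *Ciita*, in part through IRF1.

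Of the 10 genes, 7 reached the mean of 0.5 FPKM. In these, 2 were lower under the KO label, where 10.5% of all tested genes were lower, and 1 was higher, where 27.1% of all tested genes were. The classical chains *H2-Ab1* and *H2-Aa* fell and the editor subunit *H2-DMb2* rose, while *Cd74*, *H2-Eb1*, *H2-DMa* and *H2-DMb1* did not pass the test. Their median log2 fold change was -0.30, against 0.19 over all tested genes. Relative to that shift, *H2-Ab1* changed by -1.05, *H2-Aa* by -0.55 and *H2-DMb2* by 0.47. Non-overlapping groups were found for 4 of the 7 genes, and for 51.9% of all tested genes, so that this share was close to the background. On the log2(FPKM + 0.5) scale none of the 7 met the threshold of a fold change above 2 with an unadjusted p-value under 0.05, which 11.1% of all tested genes met. The ratio of the mean FPKM of *H2-DMb2*, without the added 0.5, was 2.23. Whether a lower value came from fewer cells with the transcript or from less of it in each cell cannot be told apart in bulk RNA.

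**Figure D1:**
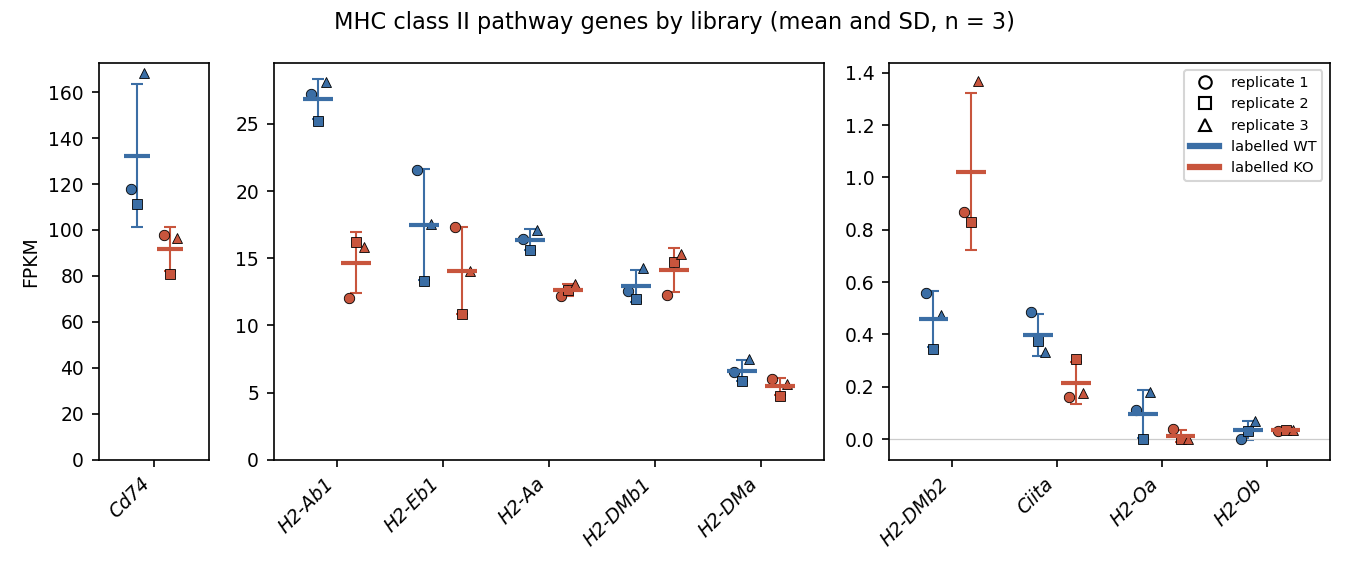
FPKM (vertical axis, linear, one scale per panel) of the 10 genes in each library. Symbols are replicates, horizontal bars the mean and error bars the SD of 3 libraries labelled WT (blue) or KO (red). The groups stood apart in *Cd74*, *H2-Ab1*, *H2-Aa*, *H2-DMb2* and *Ciita* and overlapped in the other 5 genes.

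*Ciita* (ENSMUSG00000022504, chromosome 16 from 10480059 to 10528418 in GENCODE M21, build GRCm38), the transactivator itself, was scarce in every library. It had 0.486, 0.375 and 0.331 FPKM under the WT label and 0.160, 0.306 and 0.177 FPKM under the KO label. Each library labelled KO lay below each labelled WT, although KO replicate 2 came close to WT replicate 3. With its longest coding transcript, these values correspond to about 36.0 to 55.3 fragments under the WT label and about 17.0 to 37.3 under the KO label. The gene did not reach the mean required for testing. An exact two-sided permutation test of the 6 libraries gave p = 0.1, the smallest value that 3 against 3 allow, and with no filter on low values the limma test gave a log2 fold change of -0.33 (adjusted p = 0.145). Its gene model shares 25888 bases with *Dexi* on the other strand, and whether reads were counted by strand is not given in the sources used here.

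CIITA reaches class II genes through conserved promoter elements, among them the X box bound by RFX and the Y box bound by NF-Y. Promoter sequences of 7 of the 10 genes were found in RefSeq (GRCm38.p6, 250 bases before to 50 bases after each start). None was found for *H2-Ab1*, *Cd74* and *Ciita*, so these genes were not searched. The letters GNAAC of the X box core, followed after 15 to 35 bases by GATTGG of the Y box, were searched on both strands. The letters, order and spacing were chosen after these sequences had been seen. The pair was present in 5 of the 7 genes, and in 1.21% of 32851 promoters of the same length. GATTGG alone was present in all 7 genes and in 16.1% of these promoters, and GNAAC alone in 84.8%. *H2-DMb2* had GATTGG without GNAAC at that spacing, and *H2-DMa* had GATTGG at only 1 of its 2 listed starts and no pair. The search took exact letters only. In *H2-DMb2* the letters TTAAC, which differ from GNAAC in 1 letter, stood before GATTGG at a distance within the searched range. A window of 90 bases upstream of the RefSeq start is shown for a gene of each classical kind of chain. It is also shown for the one gene that rose and for *H2-Ob*, which was close to 0. The *H2-DMb2* window lies within its GENCODE gene model, which begins farther upstream at 34143307. Capitals mark GNAAC and GATTGG. The windows, in the order printed, are chr17:34287859-34287948 (minus strand), chr17:34305742-34305831 (plus strand), chr17:34145124-34145213 (plus strand) and chr17:34238780-34238869 (plus strand).
H2-Aa: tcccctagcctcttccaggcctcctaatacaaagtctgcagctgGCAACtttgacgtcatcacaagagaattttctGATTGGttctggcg
H2-Eb1: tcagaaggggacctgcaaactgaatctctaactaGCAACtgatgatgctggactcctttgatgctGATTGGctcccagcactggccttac
H2-DMb2: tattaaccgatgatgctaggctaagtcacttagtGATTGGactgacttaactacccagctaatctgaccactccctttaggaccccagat
H2-Ob: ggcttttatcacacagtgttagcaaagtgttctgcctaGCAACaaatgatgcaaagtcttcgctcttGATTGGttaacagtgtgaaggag

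Counted from the start, GATTGG in these windows began at -49 in *H2-Aa*, -60 in *H2-Eb1*, -58 in *H2-Ob* and -91 in *H2-DMb2*. In *H2-DMb1*, whose sequence is not printed because GENCODE places it in an untranslated exon, GNAAC began at -94 and GATTGG at -62. The paired letters were thus found in *H2-Aa*, which fell, in *H2-Eb1* and *H2-DMb1*, which did not pass the test, and in *H2-Oa* and *H2-Ob*, which were barely detected. A match of letters is a description and does not show that a factor was bound.

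The classical chains of *H2-Aa* and *H2-Ab1* form the surface molecule H2-A. *H2-Ab1* (ENSMUSG00000073421, chromosome 17 from 34257689 to 34269419), the beta chain of H2-A, had 27.2, 25.2 and 28.1 FPKM under the WT label and 12.0, 16.2 and 15.8 FPKM under the KO label. The groups were well apart, with every library labelled KO far below the lowest labelled WT. The mean was 26.9 ± 1.49 FPKM (SD, n = 3) under the WT label and 14.7 ± 2.29 FPKM (SD, n = 3) with the KO label, or 54.6% of the level labelled WT. Its log2 fold change was -0.86 (SE 0.13, adjusted p = 0.00248 by limma), and the call held in all 16 alternative fits.

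*H2-Aa* (ENSMUSG00000036594, chromosome 17 from 34282744 to 34287823), the alpha chain that pairs with it, had 16.4, 15.6 and 17.1 FPKM under the WT label and 12.2, 12.6 and 13.1 FPKM under the KO label. The libraries within each group were close together and the groups did not overlap. The log2 fold change was -0.36 (SE 0.081, adjusted p = 0.0127 by limma), and the level labelled KO was 77.1% of that labelled WT. Without KO replicate 1 the adjusted p-value was 0.0623, and without KO replicate 2 it was 0.0536.

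*H2-Eb1* (ENSMUSG00000060586, chromosome 17 from 34305867 to 34316674) is the beta chain of H2-E. It had 21.6, 13.3 and 17.5 FPKM under the WT label and 17.3, 10.8 and 14.1 FPKM under the KO label. The replicates of each group were spread widely and the groups overlapped. In both groups replicate 1 was the highest and replicate 2 the lowest. The log2 fold change of -0.30 had a 95% interval from -0.83 to 0.22 (adjusted p = 0.320 by limma), so that a fall as large as that of *H2-Aa* and no change both lay within it. With the replicate number as a block the fall passed (adjusted p = 0.0196 by limma), but the numbers are not known to mark pairs. Its partner gene is listed as the pseudogene *H2-Ea-ps* in the annotation, and this row and *H2-Eb2* were at 0 in all 6 libraries. C57BL/6 mice are known to lack the H2-E alpha chain.

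*Cd74* (ENSMUSG00000024610, chromosome 18 from 60803848 to 60812652), the invariant chain, was the most abundant of the 10 genes. It had 118, 111 and 168 FPKM under the WT label and 97.8, 80.9 and 96.4 FPKM under the KO label. No library labelled KO reached the lowest one labelled WT, but WT replicate 3 stood far above the other two of its group. The log2 fold change was -0.51 (95% interval -0.92 to -0.10, adjusted p = 0.0565 by limma), which did not pass. Without WT replicate 3 the fold change was smaller at -0.32 and passed (adjusted p = 0.0439), as it did without WT replicate 2 (log2 fold change -0.62, adjusted p = 0.0497). It also passed with each of the 4 other scalings between libraries, with adjusted p-values between 0.0251 and 0.0330.

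**Figure D2:**
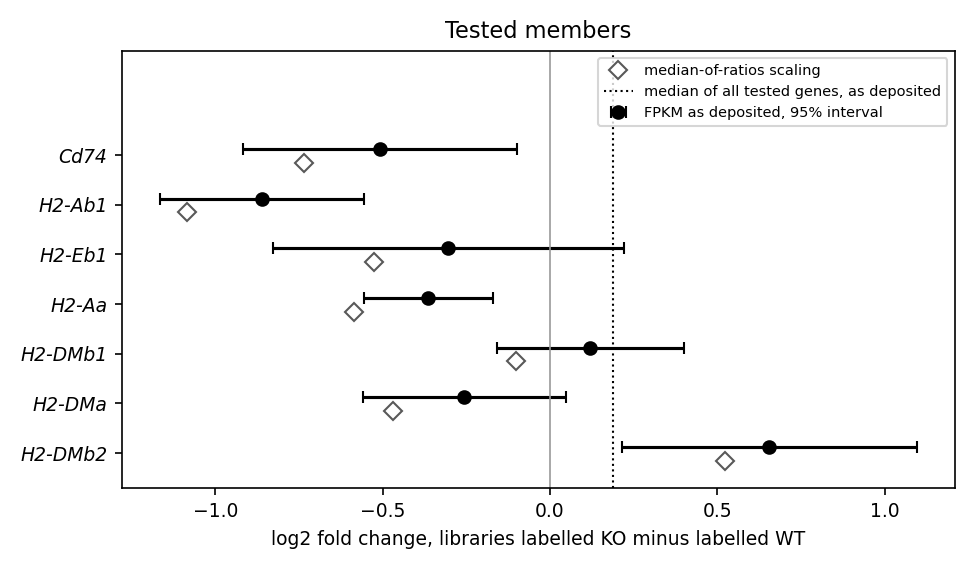
Log2 fold change (horizontal axis, libraries labelled KO minus those labelled WT, n = 3 each) of the 7 tested genes. Filled points with 95% intervals are from FPKM as deposited, open diamonds are after median-of-ratios scaling, and the dotted line is the median of all tested genes at 0.19. *H2-Ab1* lay lowest at -0.86 and *H2-DMb2* highest at 0.66, and the diamonds lay to the left of the points, for *H2-DMb1* on the other side of 0.

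H2-DM consists of the alpha chain encoded by *H2-DMa* and a beta chain encoded by *H2-DMb1* or *H2-DMb2*. *H2-DMa* (ENSMUSG00000037649, chromosome 17 from 34119541 to 34139101) had 6.54, 5.88 and 7.47 FPKM under the WT label and 5.99, 4.76 and 5.66 FPKM under the KO label. KO replicate 1 lay above WT replicate 2, so that the groups overlapped. The log2 fold change was -0.26 (95% interval -0.56 to 0.05, adjusted p = 0.159 by limma), and with median-of-ratios scaling it was -0.47 and passed (adjusted p = 0.0393). Its gene model overlaps, among others, *Brd2* on the other strand by 3094 bases and *CR974462.3* on the same strand by 591 bases. Overlaps with a gene on the other strand were also present for *H2-Eb1* (2204 bases) and *H2-Oa* (2895 bases).

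*H2-DMb1* (ENSMUSG00000079547, chromosome 17 from 34153072 to 34160230), the main beta chain in these libraries, had 12.5, 12.0 and 14.3 FPKM under the WT label and 12.3, 14.7 and 15.3 FPKM under the KO label. The groups overlapped, with KO replicate 1 inside the range labelled WT. Its log2 fold change was 0.12 (95% interval -0.16 to 0.40, adjusted p = 0.455 by limma), and it was -0.10 with median-of-ratios scaling and -0.086 with upper-quartile scaling, none of them past the threshold. The interval reaches a change of the size measured for *H2-Aa* on the upper side and does not reach it on the lower.

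*H2-DMb2* (ENSMUSG00000037548, chromosome 17 from 34143307 to 34151555), the neighbouring copy, had 0.557, 0.344 and 0.474 FPKM under the WT label and 0.867, 0.830 and 1.37 FPKM under the KO label. The groups did not overlap, and KO replicate 3 was the highest. The log2 fold change was 0.66 (SE 0.19, adjusted p = 0.0312 by limma), on about 9.2 to 15.7 fragments in each library labelled WT and about 22.7 to 37.6 in each labelled KO. The call was lost on leaving out any single library except WT replicate 3, with adjusted p-values between 0.0501 and 0.0891. It was also lost with median-of-ratios, upper-quartile and quantile scaling (adjusted p = 0.0753, 0.0731 and 0.163), and with no filter on low values (adjusted p = 0.0763). The beta chain genes are near-identical in part: 11.3% of the distinct stretches of 100 bases in the *H2-DMb1* transcripts also occurred in those of *H2-DMb2*, and 10.3% of those of *H2-DMb2* in *H2-DMb1*. How reads shared by both were counted is not given in the sources used here, and the level of *H2-DMb2* is uncertain for that reason.

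H2-DO is made of the chains encoded by *H2-Oa* and *H2-Ob* and is known mainly from B cells. *H2-Oa* (ENSMUSG00000024334, chromosome 17 from 34092340 to 34095234) had 0.111, 0 and 0.180 FPKM under the WT label and 0.0399, 0 and 0 FPKM under the KO label. *H2-Ob* (ENSMUSG00000041538, chromosome 17 from 34238903 to 34254414) had 0, 0.0308 and 0.0710 FPKM under the WT label and 0.0314, 0.0366 and 0.0360 FPKM under the KO label. These values stand for at most about 3.5 fragments of either gene in any library, so that no difference was detectable at this depth. Neither gene reached the mean required for testing.

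Ratios of FPKM within a library do not depend on the scaling between libraries. The sum of the 3 H2-DM genes over the sum of *H2-Aa*, *H2-Ab1* and *H2-Eb1* was 0.301, 0.336 and 0.354 under the WT label and 0.461, 0.513 and 0.520 under the KO label. The groups did not overlap, and the log2 difference of 0.59 was several times the SD within groups of 0.11 (exact two-sided permutation test, p = 0.1, the smallest possible). The sums behind it were 60.7 ± 5.82 and 41.4 ± 1.68 FPKM for the classical chains and 20.0 ± 2.04 and 20.6 ± 1.62 FPKM for the H2-DM genes (SD, n = 3 each, labelled WT and labelled KO). The classical sum includes *H2-Eb1*, although its partner *H2-Ea-ps* was at 0 in every library.

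*Cd74* over the same classical sum was 1.80, 2.05 and 2.68 under the WT label and 2.36, 2.04 and 2.25 under the KO label, which overlapped (log2 difference 0.04, exact permutation p = 1). The sum of *H2-Oa* and *H2-Ob* over the H2-DM sum was at most 0.0113 in any library, and its groups overlapped as well (log2 difference -1.11, exact permutation p = 0.3).

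A further 3 ratios were chosen after the values had been seen. *H2-Ab1* over *H2-Aa*, the chains of the same molecule, was 1.65, 1.62 and 1.64 under the WT label and 0.989, 1.28 and 1.21 under the KO label. The libraries labelled WT agreed closely and all lay above those labelled KO, with a log2 difference of -0.51 (exact permutation p = 0.1, the smallest possible). *H2-DMb2* over *H2-DMb1* was 0.0445, 0.0288 and 0.0332 under the WT label and 0.0705, 0.0564 and 0.0893 under the KO label, again without overlap (log2 difference 1.02, exact permutation p = 0.1, the smallest possible). *Cd74* over *H2-Aa* overlapped between the labels (log2 difference -0.13, exact permutation p = 0.7). In every library *H2-DMb2* was a small part of the H2-DM beta chain transcripts.

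**Figure D3:**
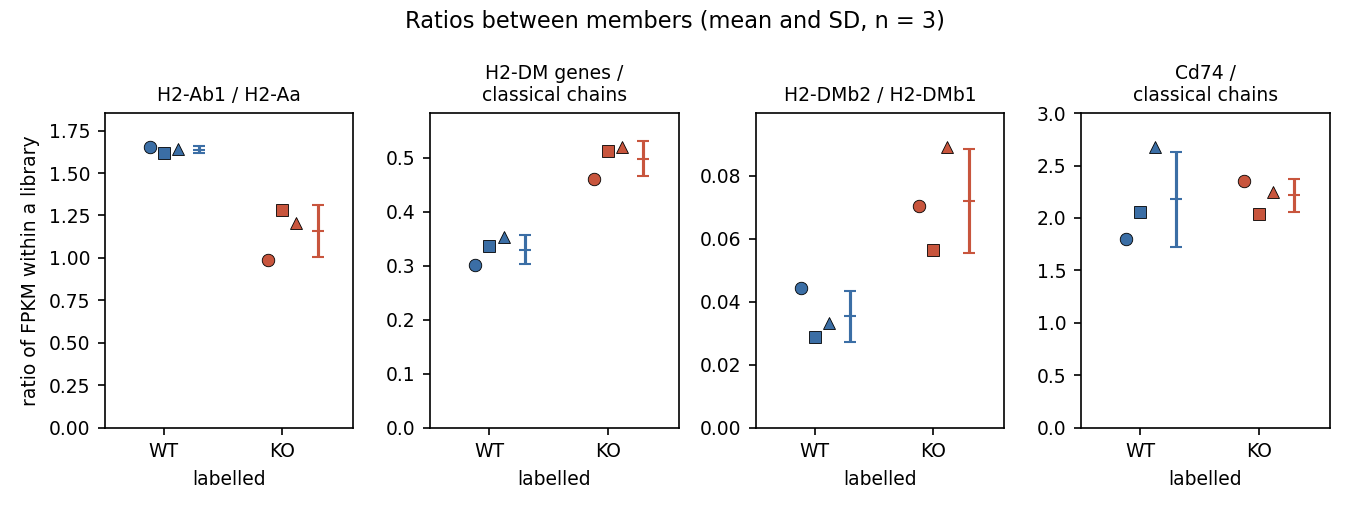
Ratio of FPKM within a library (vertical axis, linear from 0) for 4 pairs of genes or sums, by label. Symbols are replicates and error bars the mean and SD of 3 libraries. *H2-Ab1* over *H2-Aa* was lower in each library labelled KO, the H2-DM genes over the classical chains and *H2-DMb2* over *H2-DMb1* were higher, and *Cd74* over the classical chains overlapped.

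By level per length, the order under the WT label was *Cd74*, *H2-Ab1*, *H2-Eb1*, *H2-Aa*, *H2-DMb1*, *H2-DMa*, *H2-DMb2*, *Ciita*, *H2-Oa* and *H2-Ob*. Neighbours whose libraries overlapped were *H2-Eb1* and *H2-Aa*, *H2-DMb2* and *Ciita*, and *H2-Oa* and *H2-Ob*. In the libraries labelled KO *H2-Ab1*, *H2-DMb1*, *H2-Eb1* and *H2-Aa* came within 12.6 to 14.7 FPKM on average, and each overlapped its neighbour in the order. *H2-Ab1*, which stood clear of *H2-Eb1* under the WT label, did so no longer.

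The wider pathway was described from a list of 39 genes around the class II molecules, of which 38 were in the table and 35 were tested. Over all tested genes 10.5% were lower and 27.1% higher under the KO label, a background for the counts of this list and of its groups below. The list had a median log2 fold change of -0.11, against 0.19 over all tested genes. Of the 35 genes, 11 were lower in the libraries labelled KO, 7 were higher and 17 did not pass. The 9 that also changed more than 2-fold on the log2(FPKM + 0.5) scale were in interferon signalling, antigen processing, surface turnover and costimulation. *Creb1* fell short on that scale, while the ratio of its mean FPKM was 2.05.

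Interferon gamma acts through its receptor, Janus kinases and factors such as IRF1, and 4 of the 8 genes of this group were lower and 2 higher. *Irf1*, a factor that binds the *Ciita* promoter, had 45.5, 44.9 and 52.4 FPKM under the WT label and 11.1, 11.6 and 12.0 FPKM under the KO label. The groups lay far apart, at a log2 fold change of -1.99 (adjusted p = 1.44e-05 by limma). *Socs1*, a feedback inhibitor, had 7.59, 6.26 and 7.24 FPKM under the WT label and 0.701, 0.842 and 0.819 FPKM under the KO label, a log2 fold change of -2.55 (adjusted p = 1.38e-05 by limma). These falls are set beside -0.86 for *H2-Ab1* and -0.36 for *H2-Aa*, and the differences between genes were not tested. *Jak2* fell with -0.57. The receptor chain *Ifngr1* rose, from 13.3 ± 2.01 to 54.1 ± 8.93 FPKM (SD, n = 3 each, log2 fold change 1.98, adjusted p = 0.000191 by limma). *Jak1* rose with 0.45, which did not pass with median-of-ratios scaling (adjusted p = 0.0841) or upper-quartile scaling (adjusted p = 0.0618).

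The transcription group, which holds the factors that sit on class II promoters and others that act on *Ciita*, gave a single call in 10 tested genes. *Creb1*, which binds next to the X box, had 1.98, 1.40 and 1.90 FPKM under the WT label and 3.85, 3.27 and 3.67 FPKM under the KO label (log2 fold change 0.87, adjusted p = 0.00330 by limma). The RFX subunits *Rfx5*, *Rfxap* and *Rfxank* had log2 fold changes of 0.14, -0.12 and -0.16, and the NF-Y subunits *Nfya*, *Nfyb* and *Nfyc* of -0.35, 0.13 and 0.13, none of which passed. The values of *Rfx5*, *Nfyb* and *Nfyc* turned negative with median-of-ratios, upper-quartile and quantile scaling. With median-of-ratios scaling *Rfxank* passed at -0.35 (adjusted p = 0.0419 by limma), and with quantile scaling at -0.40 (adjusted p = 0.0272 by limma). *Prdm1*, a repressor of *Ciita*, narrowly missed (log2 fold change -0.41, adjusted p = 0.0501 by limma). It passed without WT replicate 3 (adjusted p = 0.0109) and with median-of-ratios, upper-quartile and quantile scaling (log2 fold changes -0.61, -0.60 and -0.62, adjusted p = 0.00935, 0.00866 and 0.00696).

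In the group that cuts the invariant chain and antigens, 4 of 9 genes were lower and 2 higher. *Sppl2a*, the protease that clears the membrane stub of the invariant chain, had 51.3, 53.5 and 51.6 FPKM under the WT label and 20.5, 20.3 and 22.5 FPKM under the KO label (log2 fold change -1.29, adjusted p = 5.18e-05 by limma). The cathepsin genes *Ctsz* and *Ctsl* fell with -0.86 and -0.56 (adjusted p = 0.00120 and 0.00717 by limma). *Ctss*, the main protease of the invariant chain in antigen-presenting cells, had 1973, 2018 and 2775 FPKM under the WT label and 1520, 1485 and 1739 FPKM under the KO label. WT replicate 3 was high here as for *Cd74*. The fall of -0.50 passed (adjusted p = 0.0438 by limma) but was lost on leaving out any library except WT replicate 3, with adjusted p-values up to 0.142. *Lgmn*, the asparagine endopeptidase, rose from 360 ± 34.7 to 618 ± 20.6 FPKM (SD, n = 3 each, log2 fold change 0.78, adjusted p = 0.00105 by limma). *Ctsd* rose with 0.35 (adjusted p = 0.0430 by limma). This was lost with median-of-ratios and upper-quartile scaling (adjusted p = 0.523 and 0.512) and on leaving out any library except WT replicate 3 (adjusted p up to 0.130). It passed with quantile scaling at 0.42 (adjusted p = 0.0170) and with scaling to an equal library total (TPM) at 0.37 (adjusted p = 0.00400).

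Class II molecules at the surface are marked for degradation by MARCH1, and CD83 opposes this. *March1* had 5.49, 6.55 and 4.85 FPKM under the WT label and 6.22, 5.60 and 5.21 FPKM under the KO label, with full overlap (log2 fold change 0.02, 95% interval -0.29 to 0.33). *Cd83* had 3.77, 4.02 and 4.45 FPKM under the WT label and 16.3, 16.0 and 17.1 FPKM under the KO label, a log2 fold change of 1.89 (adjusted p = 1.89e-05 by limma). Of the molecules that T cells read together with class II, *Cd86* fell from 19.4 ± 0.624 to 5.29 ± 0.118 FPKM and *Cd40* from 2.43 ± 0.296 to 0.478 ± 0.139 FPKM (SD, n = 3 each), with log2 fold changes of -1.78 and -1.59. *Icam1* fell with -0.66, and *Cd80* did not pass (log2 fold change -0.11, adjusted p = 0.390 by limma). With median-of-ratios scaling *Cd80* passed at -0.32 (adjusted p = 0.0395 by limma), but not with upper-quartile or quantile scaling (adjusted p = 0.0510 and 0.0593). *Il10*, a cytokine known to restrain class II display, had 0.121, 0.185 and 0.0424 FPKM under the WT label and 1.39, 1.41 and 1.23 FPKM under the KO label (log2 fold change 1.59, adjusted p = 0.000356 by limma).

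**Figure D4:**
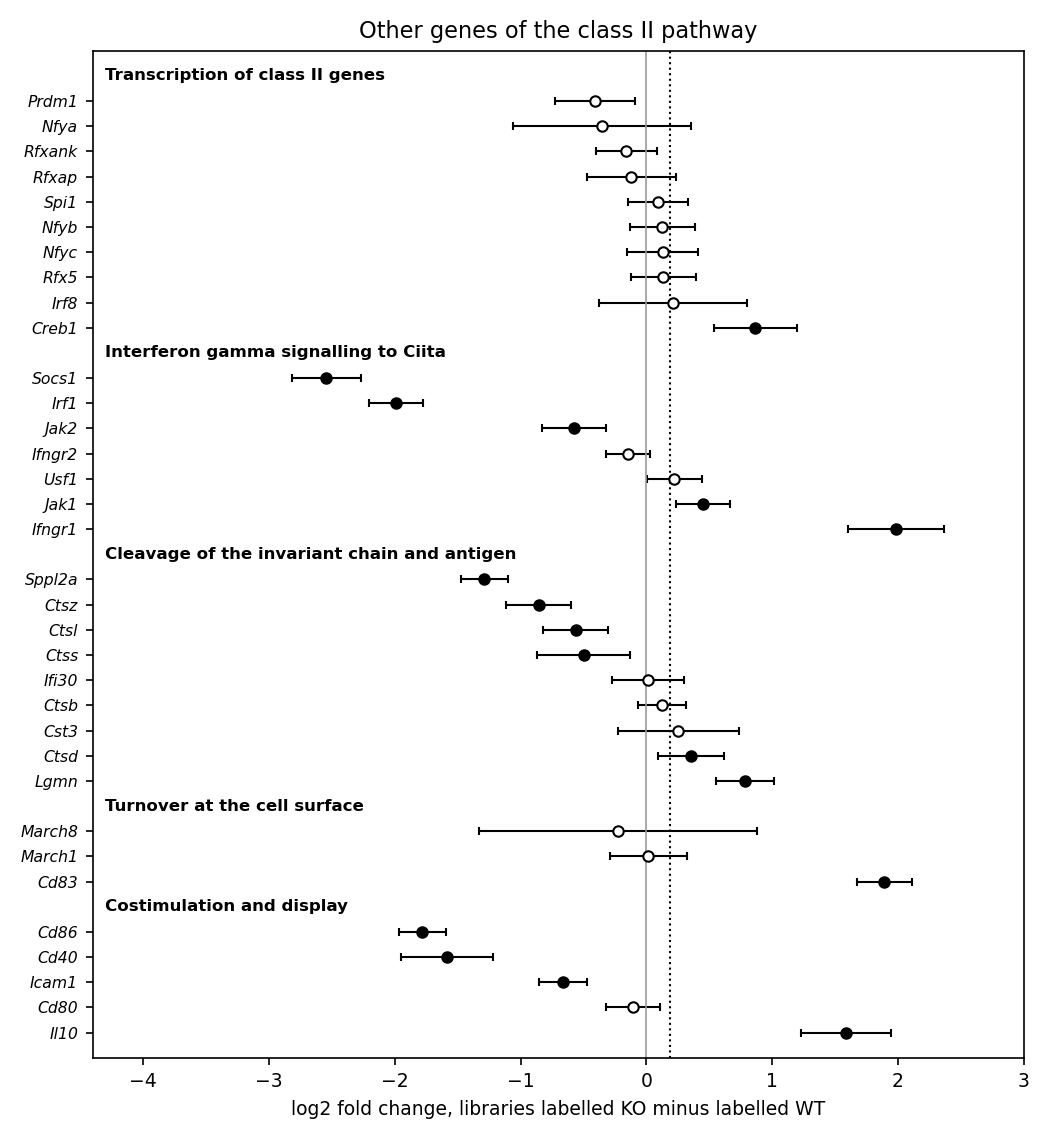
Log2 fold change with its 95% interval (horizontal axis, libraries labelled KO minus those labelled WT, n = 3 each) of the tested pathway genes reported here, by role. Filled points had an adjusted p-value under 0.05, and the dotted line is the median of all tested genes. *Socs1* lay farthest to the left at -2.55 and *Ifngr1* farthest to the right at 1.98, while 9 of the 10 genes of the transcription group were open points.

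Macrophage markers were abundant in all libraries, with a summed level of the 9 genes between 6737 and 8081 FPKM under the WT label and between 7320 and 8006 FPKM under the KO label. Of these, *Cd14* and *Fcgr1* were lower under the KO label (log2 fold changes -3.33 and -1.83) and *Mertk* and *Adgre1* higher (0.72 and 0.30, beside the median of 0.19 over all genes). Other cells with class II could be present in a Ly6G-negative sort, and their markers were moved as well. Over all tested genes 10.5% were lower and 27.1% higher, a background for the marker counts here and below. The 14 B cell markers summed to between 16.3 and 19.3 FPKM under the WT label and between 38.4 and 42.4 FPKM under the KO label. *Cd37* was the largest part of these sums, with a mean of 11.5 FPKM under the WT label and 20.2 FPKM under the KO label. Of the 5 tested genes 4 were higher, *Ighm* (0.390, 0.293 and 0.0573 against 9.66, 9.43 and 10.5 FPKM), *Cd79b*, *Cd37* and *Ebf1*, while *Cd22* did not pass. The defining B cell genes were at or near 0, with *Ighd*, *Fcer2a* and *Blk* at 0 in all libraries and *Cd79a*, *Ms4a1* and *Pax5* at no more than 0.0519 FPKM in any.

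The 13 dendritic cell markers summed to between 28.2 and 44.9 FPKM under the WT label and between 54.1 and 67.6 FPKM under the KO label, most of it *Itgax*, and *Itgax* and *Batf3* were the tested genes and both higher. *Flt3* was at 0 in all libraries. *Clec9a*, a marker of cross-presenting dendritic cells, had 0.787, 0.735 and 0.10 FPKM under the WT label and 0.0172, 0.0748 and 0.0659 FPKM under the KO label, and *Xcr1* and *Ccr7* were likewise lower in each library labelled KO than in any labelled WT, all 3 below the level tested. *Kmo* (0, 0.0585 and 0.0235 against 0.534, 0.553 and 0.725 FPKM) and *Zbtb46* (0.140, 0.120 and 0.0780 against 0.264, 0.423 and 0.231 FPKM), also below it, were higher in each library labelled KO. The 13 neutrophil markers summed to between 199 and 258 FPKM under the WT label and between 540 and 553 FPKM under the KO label, with 8 of the 10 tested genes higher and *Mmp8* lower. *Ly6g*, the marker the sort selected against, was at 0 in each library labelled WT and had 0.660, 0.547 and 0.403 FPKM under the KO label. The 8 T and NK cell markers summed to between 3.21 and 3.98 FPKM and between 12.9 and 14.6 FPKM, which was mostly *Cd4* and *Cd28*, and *Cd3d* was at 0 in all libraries. The part of these cells in the class II values was not tested.

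Over the 6 libraries, the tested genes whose log2(FPKM + 0.5) followed the mean of *H2-Aa*, *H2-Ab1*, *H2-Eb1* and *Cd74* most closely were *Gm12138*, *Gm6992*, *Thoc6*, *Gclm* and *Basp1*, with Pearson correlations of 0.998, 0.996, 0.996, 0.994 and 0.992. These are descriptions over 6 points that fall into 2 groups, so any gene that differs between the labels in the same way ranks high.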

How the data were processed

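The deposited table gives FPKM for each gene in each library, as made by the authors. Per the labels, fastp 0.17.1, HISAT2 2.1.0, DESeq2 1.18.1 and R 3.4.3 were used, with no role stated, and the genome build, annotation and quantifier are not given in the sources used here. FPKM corrects for length and library total, so a change in abundant genes shifts all others. Symbols for 55154 identifiers (99.7%) came from GENCODE M21. Without counts the study's DESeq2 test could not be run. Instead, limma 3.58.1 in R 4.3.3 (eBayes with trend, two-sided, no covariates) was applied to log2(FPKM + 0.5) in genes whose mean reached 0.5 FPKM, with Benjamini-Hochberg adjustment over all 13367, and was tested on simulated data beforehand. Ratios were compared by exact permutation over libraries. Members and lists were chosen with earlier results of these data known. All members are named, pathway genes mainly where called with a change above 2-fold, and others where a group is described. Promoters were searched in Python 3.11.15 (pandas 2.3.3, numpy 2.4.6, matplotlib 3.10.9). Alternatives covered pseudocounts, filters, scalings, a robust variance, a replicate block and each library left out. Some genes of the lists are counted but not reported here by name.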

Additional observations from a re-analysis of the deposited data

How the results depend on the processing

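*H2-Ab1* kept its direction and call in all 16 alternative fits, between -1.08 and -0.73 on the log2 scale. With median-of-ratios scaling 4 members were lower and 0 higher, and with the study's threshold on the log2(FPKM + 0.5) scale 0 were lower and 0 higher. With upper-quartile scaling, quantile normalization, a mean of at least 1 FPKM (which left *H2-DMb2* untested) or no filter, 0 were higher. With each library left out in turn, 1 to 3 members were lower and 0 to 1 higher. *H2-DMb1* reversed to -0.10 with median-of-ratios and -0.086 with upper-quartile scaling, and the cause was not tested. Over all genes, 2259 were lower and 2057 higher with median-of-ratios scaling, 2152 and 2122 with upper-quartile scaling, and 592 and 893 at the study's threshold. The share higher among calls was 72.0% as deposited, and 47.7%, 49.6% and 55.7% with median-of-ratios, upper-quartile and quantile scaling. The pathway counts stayed within 1.5 times of 11 lower and 7 higher. The 3 planned ratios moved by less than the spread within groups when any library was left out.

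Replicate numbers are shared between the groups. Same-numbered libraries deviated together with correlations of 0.12, 0.04 and 0.26, and differently numbered ones with correlations between -0.23 and 0.16. The numbers are not known to mark pairs and were not taken as such. With the replicate block 4 members were lower, with *H2-Eb1* (adjusted p = 0.0196) and *Cd74* (adjusted p = 0.0220) added, and 5934 genes were called against 5027. Not every library correlated best with its own number. Depth limits *Ciita*, *H2-Oa*, *H2-Ob* and *H2-DMb2* most.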
